A study of Mus musculus with 6 samples.

Results

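The expression of 10 genes of the integrated stress response was followed in MIN6 cells with and without chronic epinephrine. They are 5 transcription factors (Atf4, Ddit3, Atf3, Atf5 and Cebpb, where Ddit3 encodes CHOP) and 5 effectors (Trib3, Chac1, Nupr1, Ppp1r15a, which encodes GADD34, and Fam129a, also named Niban1). They were picked by symbol, as known regulators and effectors of this response, from the 22298 genes of the deposited table, and all 10 were found there. The pick was made with earlier results of these data known. Ddit3 was listed under a second identifier with 0 counts in every sample, and the identifier with counts was used. MIN6 is a mouse insulinoma line that secretes insulin. RNA was sequenced in 3 control samples and in 3 samples labelled chronic epinephrine, all from this line. Exposed cells received 100 nM epinephrine for 3 days, and the design has 2 further days without it. The day of RNA collection for sequencing is not given in the sources used here, so these samples may or may not have passed through withdrawal. The study describes its replicates in general as biological and independent, while the labels do not say whether these samples came from separate cultures. The p-values measure the spread between these samples. The line came from a tumour of mice that carry the SV40 T antigen under an insulin promoter, which limits it as a model of primary islet cells.

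In the integrated stress response, kinases that sense stress phosphorylate the translation factor eIF2, general protein synthesis falls, and the mRNA of the transcription factor ATF4 is translated more. ATF4 acts together with C/EBP family partners on genes of amino acid supply and on further regulators such as CHOP, ATF3 and TRIB3, while GADD34 brings a phosphatase to eIF2 and closes the loop. One of the kinases, PERK, sits in the membrane of the endoplasmic reticulum, and pancreatic β-cells, which make large amounts of proinsulin there, are known to depend on it. RNA-seq measures the transcripts and not the translation or phosphorylation through which much of this pathway is controlled.

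The samples held between 15017065 and 18127171 expected counts. Control 1 stood apart from the rest, with Pearson's r of log2 CPM across genes (which are not independent replicates) of 0.979 and 0.978 with controls 2 and 3, against 0.993 between these 2. The calls and log2 fold changes of the 10 genes, and the calls and medians of the lists of other pathway genes, were therefore also computed without control 1, while markers, FPKM order and likeness were not. All 15 β-cell markers were detected, with a summed level of 54700 to 71200 CPM in the controls against 64600 to 66500 with epinephrine. Of these markers 2 were called, both lower, Ins1 (log2 fold change -0.50, FDR 0.0152) and Slc2a2, which encodes the glucose transporter GLUT2 (-0.76, FDR 0.00434). Over all 12747 genes tested 0.612% were called as lower and 2.63% in either direction. CPM is a count relative to the scaled total of its sample. The 12 hepatocyte markers were also all detected, at 865 to 1520 and 1580 to 1770 CPM in sum, mostly from Ttr. Ttr alone was at 837, 1060 and 1330 CPM in the controls and at 1620, 1560 and 1740 CPM after epinephrine. The sum thus follows Ttr and does not describe the other markers of this list. Alb, the defining one, was at 0.194, 33.9 and 82.3 CPM in controls 1, 2 and 3 and at 0.297 to 0.448 after epinephrine. Fga was at 6.8 and 22.2 CPM and Fgg at 4.69 and 15 CPM in controls 2 and 3. Both were at 0 in control 1 and in every epinephrine sample. Fgb, Ahsg, Apoa1 and Cps1 were likewise higher in controls 2 and 3 than in any other sample. The source of this RNA in controls 2 and 3 was not tested. All 7 markers of other islet cells were detected, with sums of 177 to 214 and 379 to 412 CPM that came almost wholly from Gcg. Of the fibroblast and leukocyte markers, 8 of 8 each were detected, with sums of 4.34 to 25 and 2.05 to 23.1 CPM for the first and of 1.03 to 3.04 and 3.31 to 4.33 for the second, where Ptprc was at most 0.119. Most of the second sum after epinephrine came from Cd68, at 0.712, 0.343 and 0.563 CPM in the controls and 3.38, 2.13 and 2.98 CPM after epinephrine (log2 fold change 2.39, FDR 0.00906). Of 10 exocrine markers 6 were detected, at no more than 1.31 CPM in sum, and Prss1, Cpa1 and Pnlip were at 0. The part of these marker changes in the results was not tested, and in these bulk samples a change in the number of cells with a transcript and a change of RNA per cell cannot be told apart.

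The promoters were searched for motifs because the 10 genes moved together and because ATF4 is known to bind with C/EBP partners at a composite element. RefSeq windows on GRCm38.p6, from 250 bases before to 50 bases after a transcript start, were found for all 10 genes (11 windows, 2 of them for Atf5). The letters TGATGCAA, a core of the composite element, were searched on both strands and were found in the windows of Nupr1, Chac1 and Atf3. They are held by 0.895% of all 32851 windows, or 1.03% of the 27025 genes with a window. The looser form TGATGNAA, which contains the first, was found in 1 more gene, Trib3, and in 3.97% of all windows (4.51% of genes). The Trib3 match began at base 15 after the RefSeq start, which is at 152344060 on the minus strand. GENCODE places the start of Trib3 at 152344032, so in that annotation the match lies upstream of the gene. The palindrome of the cAMP response element, TGACGTCA, was found in Ppp1r15a and in 1.79% of all windows (2.03% of genes). Neither the C/EBP palindrome TTGCGCAA (0.183% of all windows) nor the ER stress response element (0.119%) or its second form (0.0365%) was found in these windows. A match is a description of letters and not a measured binding site. The 250 bases before the RefSeq start are printed for the 4 genes with a match there, 5′ to 3′ on the strand of the gene. The match to TGATGCAA (here as its reverse complement TTGCATCA) or to TGACGTCA is in capitals.

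Nupr1, chr7:126625471-126625720, minus strand: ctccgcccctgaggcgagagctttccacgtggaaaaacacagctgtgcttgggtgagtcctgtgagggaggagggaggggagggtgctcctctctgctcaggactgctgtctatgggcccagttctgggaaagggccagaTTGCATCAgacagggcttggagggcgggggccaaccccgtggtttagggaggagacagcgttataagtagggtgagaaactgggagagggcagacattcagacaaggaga
Chac1, chr2:119350992-119351241, plus strand: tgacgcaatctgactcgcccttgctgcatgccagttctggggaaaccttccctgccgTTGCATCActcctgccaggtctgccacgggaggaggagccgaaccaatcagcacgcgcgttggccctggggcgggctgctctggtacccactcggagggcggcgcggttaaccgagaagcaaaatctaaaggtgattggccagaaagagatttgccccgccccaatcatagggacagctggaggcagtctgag
Atf3, chr1:191183334-191183583, minus strand: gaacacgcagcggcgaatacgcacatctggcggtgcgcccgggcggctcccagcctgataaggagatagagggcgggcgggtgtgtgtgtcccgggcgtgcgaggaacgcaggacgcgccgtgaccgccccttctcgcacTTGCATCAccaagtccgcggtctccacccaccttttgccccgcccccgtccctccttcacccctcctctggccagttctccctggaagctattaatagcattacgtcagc
Ppp1r15a, chr7:45526269-45526518, minus strand: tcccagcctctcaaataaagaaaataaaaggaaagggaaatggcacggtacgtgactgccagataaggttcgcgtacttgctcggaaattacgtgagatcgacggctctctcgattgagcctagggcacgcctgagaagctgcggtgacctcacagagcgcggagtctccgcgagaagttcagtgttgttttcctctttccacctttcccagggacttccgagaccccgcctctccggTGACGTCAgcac

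The match began 110 bases before the RefSeq start in both Nupr1 and Atf3, 193 bases before it in Chac1 and 12 bases before it in Ppp1r15a. In GENCODE, Atf3 and Nupr1 begin further upstream, at 191218039 and 126630861 on the minus strand, where no window was searched. The genes with the composite letters did not share a size of change, since Nupr1 had the largest log2 fold change of the 10 genes and Atf3 one of the smaller ones. The plot of motif matches shows their place in each window.

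**Figure D1:**
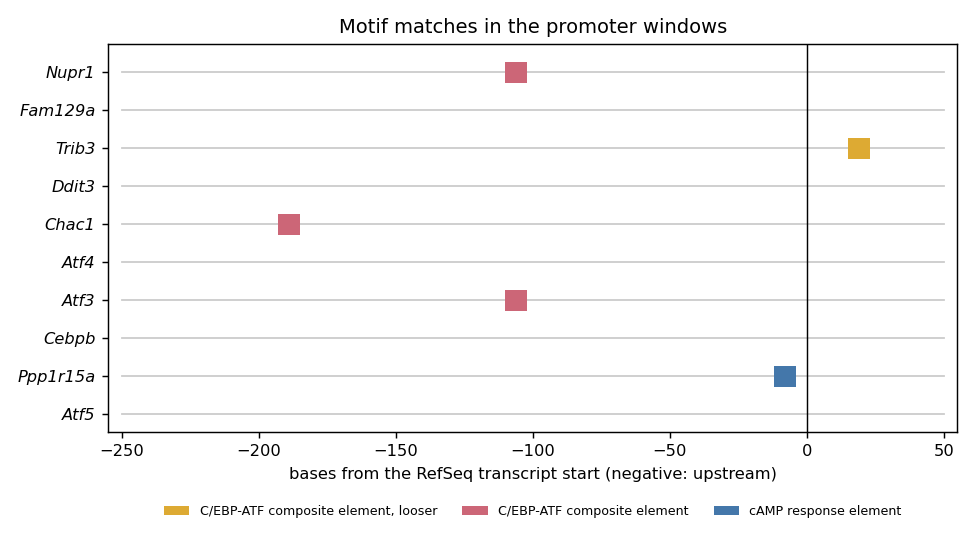
Motif matches in the RefSeq promoter windows of the 10 genes, with the distance in bases from the transcript start on the x axis and each gene on a line, ordered by its log2 fold change. Matches to TGATGCAA lie upstream of the RefSeq starts of Nupr1, Chac1 and Atf3. The looser match of Trib3 lies just after its RefSeq start, and the cAMP response element of Ppp1r15a lies 12 bases before its start. For Atf5 both windows were searched and neither held a match.

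All 10 genes were upregulated after chronic epinephrine at an FDR under 0.05, where 2.02% of the 12747 genes tested were upregulated and 0.612% downregulated at that threshold (FDR is the Benjamini-Hochberg adjusted p of the quasi-likelihood test of edgeR over all genes tested). The change was at least 2-fold for 5 of them, Nupr1, Fam129a, Trib3, Ddit3 and Chac1, where 0.635% of all genes passed both thresholds in this direction and 0.722% in either. For all 10 genes the groups did not overlap and epinephrine was higher, which held for 14.3% of all genes tested, while 27.3% did not overlap in either direction. Over the 10 genes the median of the log2 fold changes was 1.02, against 0.00 over all genes. Because the 10 genes were picked with earlier results of these data known, these contrasts with all genes are a description and not a test. All 10 passed the filter on low counts, with between 48 counts (Nupr1 in control 1) and 6059 counts (Atf4 in chronic epinephrine 2) in a sample. Taken singly, each gene had an exact permutation p of 0.1 (two-sided), and a design of 3 against 3 samples cannot go lower.

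**Figure D2:**
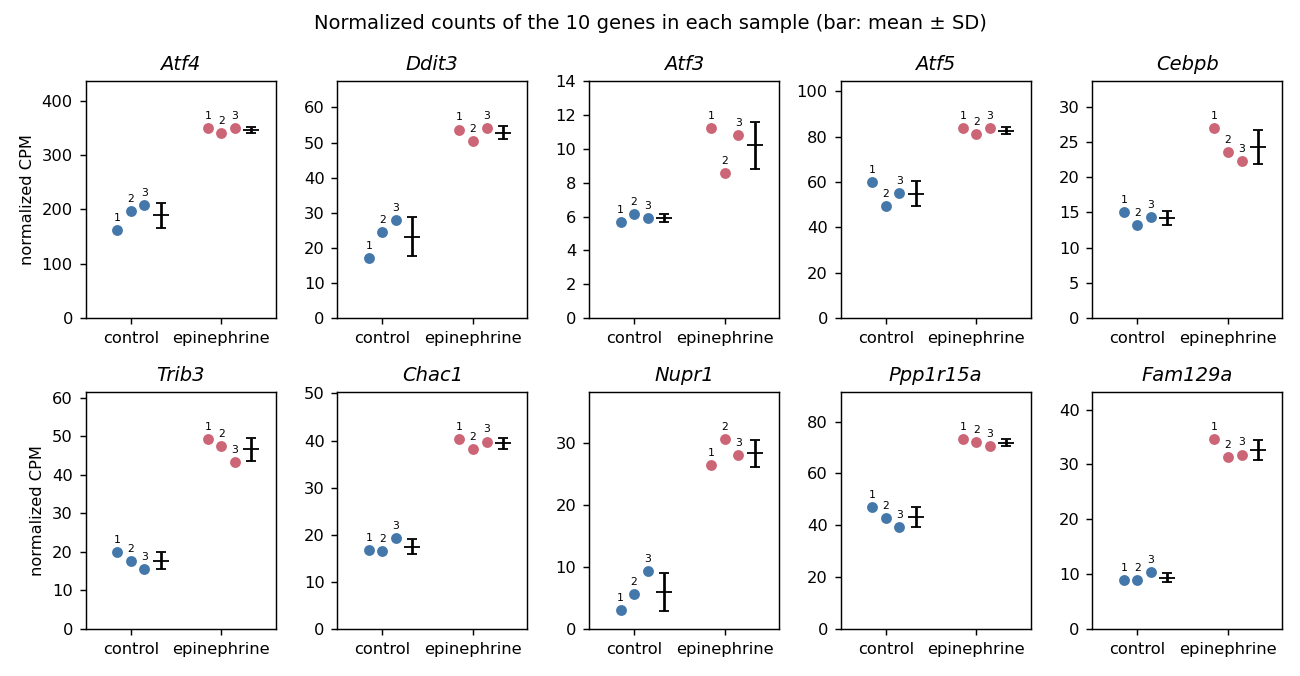
Normalized counts of each of the 10 genes, with CPM on the y axis from 0 and the 3 control and 3 epinephrine samples as numbered points. The bars give the mean ± SD of each group, and in every panel the lowest epinephrine sample lies above the highest control, by 1.35-fold for Atf5 and 3.04-fold for Fam129a.

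Atf4 (chromosome 15 of GRCm38 from 80255184 to 80257541) encodes the central transcription factor of the response. Its level was 163, 198 and 208 CPM in controls 1, 2 and 3 and 349, 340 and 349 CPM in the epinephrine samples. The epinephrine samples lay close together and well above the controls, of which control 1 was lowest. The rise was 0.87 on the log2 scale (SE 0.10, FDR 0.00581), or 1.83-fold, and it was 0.77 without control 1. Ddit3 (chromosome 10 from 127290774 to 127296288) encodes CHOP, which is known to heterodimerize with C/EBP factors and to promote cell death under lasting stress. It was at 17.2, 24.5 and 27.9 CPM in the controls and at 53.7, 50.5 and 54.0 CPM after epinephrine. Control 1 was again lowest, and the lowest epinephrine sample was 1.81-fold above the highest control. The rise was 1.19 on the log2 scale (SE 0.16, FDR 0.00853) and 1.01 without control 1. Of 50-base windows of its transcripts 4.38% are shared with a further Ddit3 annotation and with Mars on the other strand. Mars was listed as Mars1, with a log2 fold change of 0.44 (FDR 0.0825), below that of Ddit3.

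Atf3 (chromosome 1 from 191170296 to 191218039) encodes a stress-induced factor of the same family that mostly represses transcription. It was the gene with the fewest counts after epinephrine, at 11.2, 8.57 and 10.8 CPM against 5.70, 6.17 and 5.94 CPM in the controls. Here the spread lay in the epinephrine group, where sample 2 was lowest, and the controls were nearly alike. The log2 fold change was 0.77 (SE 0.14, FDR 0.0292), the weakest call of the 10 genes. With replicate number as a block Atf3 was not called (log2 fold change 0.77, FDR 0.086). Atf5 (chromosome 7 from 44812256 to 44816658) encodes a close relative of ATF4 that is known for the mitochondrial stress response. It was at 60.2, 49.4 and 55.2 CPM in the controls and at 83.6, 81.1 and 83.6 CPM after epinephrine. Its log2 fold change of 0.59 (SE 0.09, FDR 0.0147) was the smallest of the 10 genes, at 1.51-fold. Cebpb (chromosome 2 from 167688915 to 167690418) encodes a C/EBP factor that can pair with ATF4 and CHOP. It was at 15.1, 13.2 and 14.4 CPM in the controls and at 26.9, 23.6 and 22.3 CPM after epinephrine, a rise of 0.77 on the log2 scale (SE 0.11, FDR 0.0108). Its single exon overlaps Tmem189 on the other strand by 312 bases, and 18.1% of its 50-base windows are shared with that gene. Tmem189 was at 47.2 ± 2.18 and 47.1 ± 2.67 CPM (SD, n = 3), with a log2 fold change of 0.00 (FDR 0.990). Whether the counting used strand is not given in the sources used here, so reads from the shared bases cannot be assigned with certainty.

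Among the effectors, Nupr1 (chromosome 7 from 126623249 to 126630861), a small stress-induced chromatin-binding protein, showed the largest fold change and the largest spread. It was at 3.11, 5.60 and 9.26 CPM in controls 1, 2 and 3 and at 26.4, 30.6 and 28.0 CPM after epinephrine. The controls differed among themselves by 2.98-fold, while the epinephrine samples differed by 1.16-fold and all lay at least 2.85-fold above the highest control. The log2 fold change was 2.24 (SE 0.30, FDR 0.00776), or 4.72-fold, with 1.94 without control 1 and 2.69 without control 3. Among the controls Alb ran in the same order as Nupr1, Ddit3, Atf4 and Fam129a and in the opposite order to Trib3 and Ppp1r15a, the other 4 genes ran in neither, and its part was not tested. Fam129a (chromosome 1 from 151571186 to 151721939) encodes NIBAN1, a protein that is known to rise in stressed cells and to act on eIF2 phosphorylation. It was at 8.87, 8.97 and 10.3 CPM in the controls and at 34.6, 31.3 and 31.8 CPM after epinephrine. The groups were separated by 3.04-fold, the widest gap of the 10 genes. This was a log2 fold change of 1.80 with an SE of 0.11 (FDR 0.000272), and Fam129a ranked 4 of 12747 genes by p-value.

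Trib3 (chromosome 2 from 152337422 to 152344032) encodes a pseudokinase that binds ATF4 and the kinase AKT and is known to inhibit both. It was at 19.9, 17.7 and 15.6 CPM in the controls and at 49.2, 47.4 and 43.3 CPM after epinephrine. The log2 fold change was 1.40 (SE 0.11, FDR 0.00123), or 2.63-fold, and it ranked 10 by p-value. Chac1 (chromosome 2 from 119351229 to 119354381) encodes an enzyme that degrades glutathione. It was at 16.7, 16.5 and 19.3 CPM in the controls and at 40.3, 38.2 and 39.8 CPM after epinephrine. Its values were tight in both groups, and it rose on the log2 scale by 1.17 (SE 0.10, FDR 0.00148). Ppp1r15a (chromosome 7 from 45522916 to 45526268) encodes GADD34, the stress-induced subunit that directs protein phosphatase 1 to eIF2. It was at 47.1, 42.7 and 39.4 CPM in the controls and at 73.2, 72.0 and 70.6 CPM after epinephrine, a log2 fold change of 0.74 (SE 0.09, FDR 0.00600). The constitutive counterpart of GADD34, Ppp1r15b, had a log2 fold change of 0.18 (FDR 0.378), with overlapping groups, and the difference between both genes was not tested.

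Levels relative to the mean of the controls show how the genes differed among themselves. After epinephrine the median over the 10 genes was 1.06, 0.99 and 1.04 on the log2 scale in samples 1, 2 and 3, and in the controls it was -0.06, 0.00 and 0.08. The 5 transcription factors rose by 0.59 to 1.19 and the 5 effectors by 0.74 to 2.24 on the log2 scale. Control 1 was lowest of the controls for 5 genes (Atf4, Ddit3, Atf3, Nupr1 and Fam129a) and highest for 4. Chronic epinephrine 1 was highest of its group for 8 genes and lowest for Nupr1. The SD was a larger share of the mean in the control group for 8 genes, up to 51.8% for Nupr1 and 23.7% for Ddit3, and Atf3 and Cebpb were the exceptions. The genes summed to 357, 383 and 405 CPM in the controls and to 748, 723 and 733 CPM after epinephrine, and Atf4 gave 45.7% to 51.7% of that sum in every sample.

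**Figure D3:**
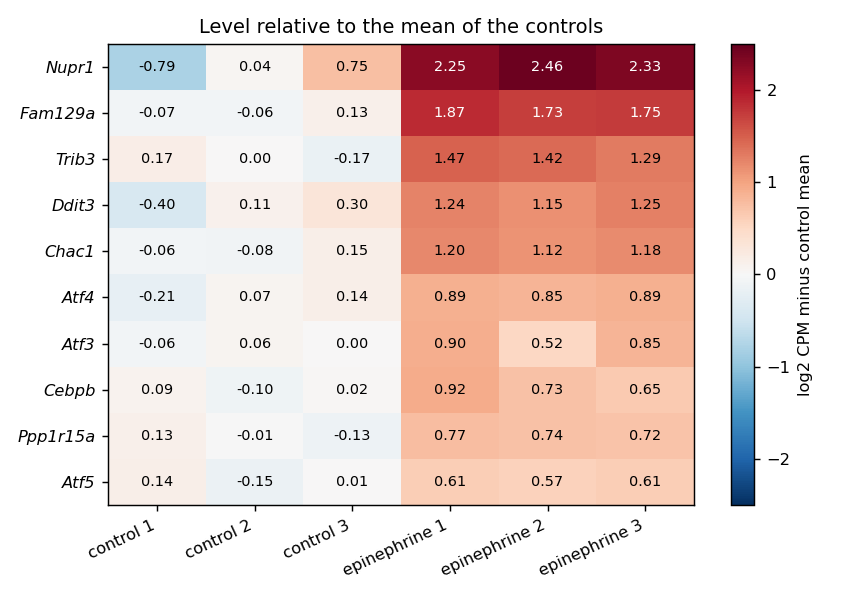
Log2 CPM of each gene minus its mean in the controls, with samples as columns and genes as rows ordered by log2 fold change. Epinephrine columns are positive for every gene, from 0.52 (Atf3, sample 2) to 2.46 (Nupr1, sample 2), and among the controls Nupr1 runs from -0.79 to 0.75.

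Levels of different genes were compared by FPKM, which is scaled to transcript length. In the control group Atf4 was highest at 111 ± 11.9 FPKM (SD, n = 3), followed by Atf5 at 30.6 ± 3.41 and Ddit3 at 27.2 ± 5.76, whose values overlapped. Ppp1r15a was next at 18.4 ± 2.07. Chac1, Cebpb, Trib3 and Nupr1 followed between 10.8 and 7.47 FPKM, each overlapping the next, and Atf3 (3.02 ± 0.102) and Fam129a (1.45 ± 0.0987) were lowest. After epinephrine the order changed. Atf4 stayed highest at 199 ± 4.22 FPKM, and Ddit3 at 61.1 ± 2.83 now lay above Atf5 at 45.2 ± 1.02 without overlap. Nupr1 moved from place 8 to place 4, at 34.1 ± 2.44 FPKM, above Ppp1r15a at 30.2 ± 0.668. Chac1 (23.8 ± 0.805) and Trib3 (22.8 ± 1.5) overlapped, Cebpb was at 16 ± 1.61, and Atf3 and Fam129a overlapped at 5.08 ± 0.732 and 4.97 ± 0.342.

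Without control 1 all 10 genes stayed at an FDR under 0.05, where 12.1% of the genes then tested were upregulated at that threshold, and the 5 genes named above stayed at least 2-fold. Fam129a, Trib3 and Chac1 stayed under this FDR in each of the 6 fits with a sample left out, with a largest FDR of 0.0210. Without chronic epinephrine 1, and likewise without chronic epinephrine 2, these 3 genes were the ones called, while 47 of all genes were. Nupr1, Atf4 and Ppp1r15a lost the call in 2 of the 6 fits, Ddit3 in 3, Cebpb in 4, and Atf5 and Atf3 in 5. Over these fits the log2 fold change of Atf4 lay between 0.77 and 0.94, that of Ddit3 between 1.01 and 1.34 and of Atf3 between 0.70 and 0.89. For Atf5 it lay between 0.51 and 0.66, for Cebpb between 0.69 and 0.83 and for Ppp1r15a between 0.68 and 0.81.

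**Figure D4:**
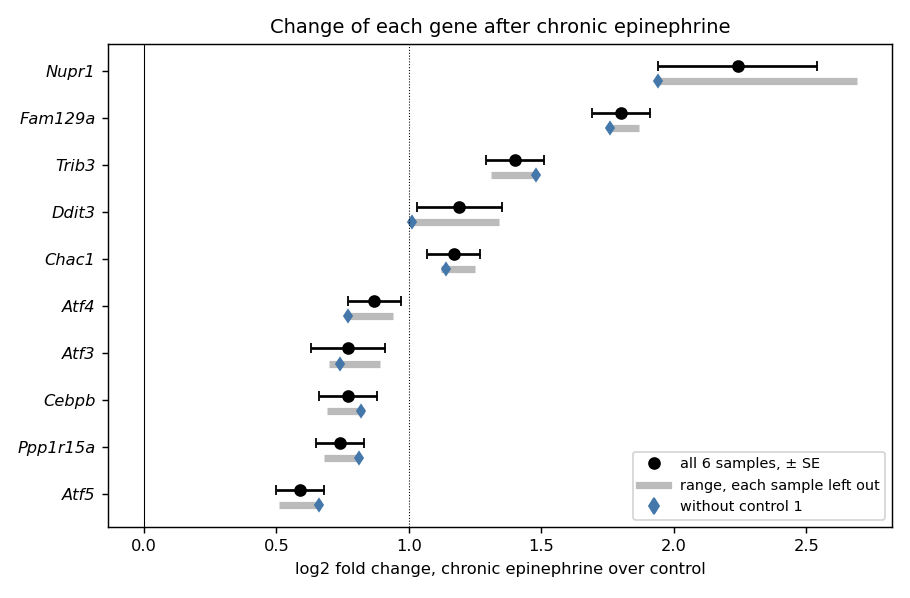
Log2 fold change of each gene (x axis, chronic epinephrine over control) with its SE, above the range over fits that each left out 1 sample and the value without control 1. The dotted line marks 2-fold. Every range lies above 0, and that of Nupr1 is the widest, from 1.94 to 2.69.

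The other genes of the pathway were described by lists. These were also chosen with earlier results of these data known, so their shares beside all genes are a description. The deposited data held 45 further reported targets of ATF4 or CHOP, and 42 were tested, of which 24 were upregulated at an FDR under 0.05 (57.1%, against 2.02% of all genes) and 0 downregulated. The log2 fold change was positive for 41 of the 42. Bcl2l11 was lower (-0.45, FDR 0.0785), and its groups did not overlap. At an unadjusted p under 0.05 there were 33 targets in either direction, against 17.1% of all genes, and DESeq2 called 30, against 5.07% of the genes to which it gave an FDR. Their median log2 fold change was 0.56, and it was 0.60 without control 1, where 35 were called as higher and 1 as lower, against 12.1% of all genes as higher. The 5 targets with the smallest p were Aldh1l2, a mitochondrial folate enzyme (1.47, FDR 0.000221), Slc7a11 (2.44, FDR 0.000519) and Slc7a3 (2.01, FDR 0.000575), which carry cystine and cationic amino acids, Pycr1 of proline synthesis (1.18, FDR 0.00199) and Eif4ebp1, a repressor of cap-dependent translation (1.62, FDR 0.00199), each value a log2 fold change. The number of targets called was 8 without chronic epinephrine 1, 11 without chronic epinephrine 2 and 11 without chronic epinephrine 3, where calls over all genes were 47, 47 and 77, against 335 with every sample.

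For the upstream arm, 21 genes for eIF2 kinases, their partners, the phosphatase and the subunits of eIF2 and eIF2B were listed, and all were tested. The 21 include Eif2a and Eif2d, which are not subunits of either complex. Of the list 1 gene was called, Dnajc3, whose product inhibits eIF2 kinases (log2 fold change 0.41, FDR 0.0342), where 2.02% of all genes were called as higher. An unadjusted p under 0.05 was found for 3 of the 21, Eif2d among them, a share below the 17.1% of all genes. The median of this list was 0.16 (0.09 without control 1), and 8 of its genes were higher with no overlap between groups, against 14.3% of all genes. Of the 4 kinases, Eif2ak3 (PERK) had a log2 fold change of 0.22 (FDR 0.303), Eif2ak4 (GCN2) one of -0.07 (FDR 0.775), Eif2ak2 (PKR) one of -0.10 (FDR 0.724) and Eif2ak1 (HRI) one of -0.17 (FDR 0.444). The activity of these kinases is set by phosphorylation, which was not measured here. Dnajc3 was not called under the replicate block, nor without control 2 or 3 or any epinephrine sample, and without control 1 this list had 6 genes called as higher and 1 as lower, against 12.1% of all genes as higher and 21.6% in either direction.

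Of 36 other bZIP factors of the ATF/CREB, C/EBP, JUN and FOS families 28 were tested and edgeR called 0, with 7 at an unadjusted p under 0.05 (17.1% of all genes), while DESeq2 called Crem, a cAMP-induced factor (log2 fold change 0.62, FDR 0.0313), a single call where it called 5.07% of all genes. Their median log2 fold change was 0.09, and it was 0.11, 0.03 and 0.06 without control 1, 2 and 3. Cebpg, a partner of ATF4, had a log2 fold change of 0.33 (edgeR FDR 0.129), and Jun one of -0.20 (FDR 0.285). Without control 1, 9 were called as higher and 1 as lower, where 21.6% of all genes were called. Paralogs of the 10 genes were tested in 10 cases and edgeR and DESeq2 both called 0, with 1 at an unadjusted p under 0.05 in edgeR (17.1% of all genes), and their median was 0.12 (0.09 without control 1 and 0.06 without control 2). Of these paralogs 4 were also in another list, Cebpd, Cebpg and Jdp2 among the bZIP factors and Ppp1r15b in the eIF2 list, and the paralog at that p was Cebpg, which is also 1 of the 7 bZIP factors. Trib1 and Trib2, the paralogs of Trib3, had log2 fold changes of 0.05 and 0.22, Chac2 had one of 0.13, and Nupr1l one of -0.12. Fam129b and Fam129c, the paralogs of Fam129a, had log2 fold changes of -0.26 and -0.22. The groups overlapped for each of these named paralogs. Without control 1, 3 of the 10 paralogs were called as higher, against 12.1% of all genes.

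**Figure D5:**
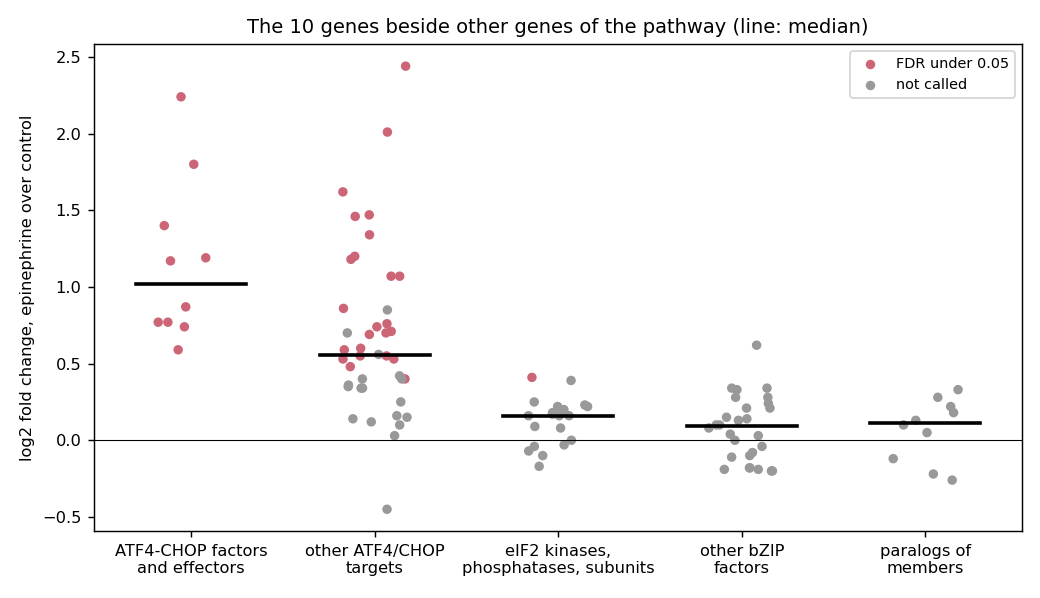
Log2 fold change (y axis, chronic epinephrine over control) of the 10 genes and of 4 lists of other genes of the pathway, 1 point a gene in each list (4 paralogs are also plotted in another list), with genes at an FDR under 0.05 in red and the median as a line. The medians are 1.02 for the 10 genes, 0.56 for other ATF4 or CHOP targets, 0.16 for the eIF2 list, 0.09 for other bZIP factors and 0.12 for paralogs.

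Outside the 10 genes, likeness was measured as the root mean square difference of centred log2 CPM from their mean profile over the 6 samples. The closest genes were Sdf2l1 (0.0817), a component of endoplasmic reticulum chaperone complexes, Nucb2 (0.0895), the precursor of nesfatin, Gcg (0.0910), which encodes glucagon, Adm2 (0.0919), a secreted peptide that is also in the list of targets, and Scel (0.0923). Of the 10 genes Chac1 was nearest to their mean profile (0.0382) and Nupr1 farthest (0.709). Sdf2l1 was at 40.3, 39.8 and 44.7 CPM in the controls and at 102, 102 and 104 CPM after epinephrine, a log2 fold change of 1.30 (SE 0.08, FDR 0.000400). Gcg, the hormone of α-cells, was at 175, 195 and 212 CPM in the controls and at 377, 396 and 409 CPM after epinephrine (log2 fold change 1.02, FDR 0.00199). These genes were picked for their likeness, so their values are a description.

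The transcripts of the 10 genes differ in their 5′ leaders, the stretch before the coding sequence, where upstream start codons are known to govern the translation of Atf4. In 1 principal GENCODE transcript a gene, 6 of the 10 genes had an upstream ATG, against 51.1% of 12374 tested genes with a leader. Ppp1r15a and Atf4 had 3, Ddit3 and Atf5 had 2, Atf3 and Nupr1 had 1, and Cebpb, Trib3, Chac1 and Fam129a had 0. At least 2 upstream ATGs were thus found in 4 of the 10 genes and in 29.0% of all. Leaders ran from 34 bases (Fam129a) to 594 bases (Atf4), with a median of 172 bases over all genes. In the deposited annotation, 6 of the 10 genes carry the GO term response to endoplasmic reticulum stress (Atf4, Cebpb, Ddit3, Fam129a, Ppp1r15a and Trib3), which 0.533% of all tested genes carry, and 4 (Atf3, Atf4, Cebpb and Ddit3) carry the term for activation of transcription in response to that stress, which 10 tested genes carry in all.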

How the data were processed

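Total RNA of MIN6 cells was extracted with Trizol and sequenced on an Illumina instrument, in 3 control and 3 chronic epinephrine samples. The deposited values are of 2 units, an expected count per gene (estimated, not scaled between samples, 8.34% not whole) and an FPKM value that the authors scaled to transcript length and sample total. The build is GRCm38 per the labels, and the aligner, counter and strand setting are not given in the sources used here. Expected counts were rounded, filtered by filterByExpr, scaled by TMM and tested in edgeR 4.0.16 (glmQLFit and glmQLFTest, R 4.3.3), with group as the sole term and Benjamini-Hochberg adjustment (FDR) over all 12747 genes tested. SE is the log2 fold change divided by the root of the F statistic. CPM in the text are TMM-scaled, and log2 CPM had a prior count of 2. A count of 0 allows up to 3 counts, or 0.165 to 0.200 CPM, for counting error only. The scripts were tested on simulated data with 200 changed genes. Alternatives were DESeq2 1.42.0, other scalings and filters, limma 3.58.1 on log2 FPKM with 1 or 0.1 added, replicate number as a block and each sample left out.

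The 10 genes and all lists were chosen with earlier results of these data known, and the lists were written from general knowledge. Named genes are the 10 genes, the called genes of each list (at most 5, by p), the eIF2 kinases and some other list genes chosen after their values were seen, and the 5 genes most like the mean profile. Of the listed symbols 4 were not matched as written, among them older forms (Mars was listed as Mars1 and stayed out of the target list). Positions, 50-base windows and leaders come from GENCODE M21 on GRCm38, which holds 22255 of the 22298 identifiers. Promoters come from RefSeq on GRCm38.p6.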

Additional observations from a re-analysis of the deposited data

How the results depend on the processing

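Under the 9 settings that kept all samples, all 90 values of the 10 genes stayed positive, and 89 kept their side of the threshold. The exception was Atf3 with replicate number as a block (FDR 0.0860). That block left 9 of the 10 genes called and 178 of all genes, against 335 without it. Nothing in the labels says that numbers mark a shared batch, and deviations of same-numbered samples correlated at 0.0502, 0.0677 and -0.0488 across genes, so the numbers were not treated as pairs. DESeq2 called 729 of all genes. With each sample left out, 23 of 60 values lost the call and 0 changed sign. The number of the 10 genes called ranged from 3 (without chronic epinephrine 1 or 2) to 10 (without control 1), the number at both thresholds from 3 to 5, the number of all genes from 47 to 2798 and the median log2 fold change of the 10 genes from 0.92 to 1.09. Leaving out a sample leaves 2 in its group. The 3 samples a group and, for Nupr1 in control 1, 48 counts limit the precision.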
